A study of Mus musculus with 8 samples.

Results

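Transcripts of cholesterol and fatty acid synthesis were followed through a set of 31 named genes, on 8 Affymetrix arrays of mouse embryonic stem cells. The set holds 17 genes of sterol synthesis, 6 of sterol sensing and regulation, 5 of fatty acid synthesis and 3 of sterol transport and export. Each gene was read from the probe set of highest mean log2 signal among those annotated to that gene alone. This gave 29 measured genes out of 18193 in the series, and all 29 passed the filter on low values. Acat2 and Nr1h2 had no such probe set and are not analysed here. Mean log2 signal over the 8 arrays ran from 7.72 for Tm7sf2 to 13.03 for Acly, and 28 of the 29 genes lay at 8 or above. These means rank probe sets and not transcripts, because probe sets bind with unequal strength.

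There were 4 groups of 2 arrays each. J1 is a wild-type line of mouse embryonic stem cells. The other line is labelled Rex-1 KO, a knockout of the zinc finger protein encoded by Zfp42, also on the J1 background. Either line was grown with leukemia inhibitory factor (LIF) or without it, in serum-containing medium on gelatin and without a feeder layer. Withdrawal lasted 12 hours by a text that all 8 arrays share. The growth text of the knockout arrays without LIF mentions LIF as added, and the group was taken from their titles and treatment text. The sources used here do not say how the allele was made or whether the knockout line is 1 clone. Both arrays of a group are described as biological replicates, and their titles differ only by a final letter r, here the second array. What the letter marks is not stated, so p-values measure only the spread between these arrays.

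Cells make cholesterol from acetyl-CoA through mevalonate and squalene, and make fatty acids from the same precursor through malonyl-CoA. The transcription factors SREBP-2 and SREBP-1, encoded by Srebf2 and Srebf1, switch on both sets of enzymes when sterols are low. Scap carries them to the Golgi for cleavage, and Insig proteins hold Scap back when sterols are plentiful. When oxysterols build up, the liver X receptors (LXR) turn on the exporters Abca1 and Abcg1 together with Srebf1 and Fasn.

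The promoter windows are shown first. RefSeq windows on GRCm38.p6, from 250 bases before to 50 bases after an annotated start, were at hand for 24 of the 31 genes, 14 of them in sterol synthesis. The first 3 windows below are those that hold an LXR pair, in capitals, meaning TGACC followed after 5 bases by TAACC. They are shown because Abca1 is the gene on which the LIF comparison turns. In the next 2, from the mevalonate steps, capitals mark every NF-Y box (CCAAT or its complement ATTGG), and in Hmgcs1 also the core of the sterol regulatory element (TCACCCCAC). Mvk is shown because it had the smallest unadjusted p between the genotypes averaged over LIF, among the probe sets that stand for the genes.
Abca1, chr4:53159846-53160145, minus strand: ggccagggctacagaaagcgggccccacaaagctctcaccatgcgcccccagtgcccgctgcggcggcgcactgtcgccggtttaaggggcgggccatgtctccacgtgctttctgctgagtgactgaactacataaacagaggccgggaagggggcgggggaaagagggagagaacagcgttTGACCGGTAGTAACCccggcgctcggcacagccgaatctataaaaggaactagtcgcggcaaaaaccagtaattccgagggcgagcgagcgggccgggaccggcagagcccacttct
Srebf1, most downstream of 3 starts, chr11:60210422-60210721, minus strand: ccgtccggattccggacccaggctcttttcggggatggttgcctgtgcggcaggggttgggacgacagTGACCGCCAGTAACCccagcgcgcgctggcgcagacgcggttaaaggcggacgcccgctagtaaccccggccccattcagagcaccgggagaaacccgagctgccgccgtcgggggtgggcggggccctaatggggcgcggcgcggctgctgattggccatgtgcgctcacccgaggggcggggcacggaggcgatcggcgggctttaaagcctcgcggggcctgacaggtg
Fasn, chr11:120824498-120824797, minus strand: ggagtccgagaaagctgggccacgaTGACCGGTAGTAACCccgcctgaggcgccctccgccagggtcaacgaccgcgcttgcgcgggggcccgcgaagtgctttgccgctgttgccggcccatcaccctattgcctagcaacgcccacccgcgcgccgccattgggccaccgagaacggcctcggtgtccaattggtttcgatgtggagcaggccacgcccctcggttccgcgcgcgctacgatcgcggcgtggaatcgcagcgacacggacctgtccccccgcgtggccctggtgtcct
Hmgcs1, chr13:119690101-119690400, plus strand: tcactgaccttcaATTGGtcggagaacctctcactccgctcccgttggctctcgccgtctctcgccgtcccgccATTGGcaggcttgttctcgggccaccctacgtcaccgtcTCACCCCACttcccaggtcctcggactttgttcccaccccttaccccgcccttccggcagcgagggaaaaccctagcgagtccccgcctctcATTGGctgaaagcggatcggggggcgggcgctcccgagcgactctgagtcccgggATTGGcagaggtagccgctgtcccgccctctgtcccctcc
Mvk, chr5:114444019-114444318, plus strand: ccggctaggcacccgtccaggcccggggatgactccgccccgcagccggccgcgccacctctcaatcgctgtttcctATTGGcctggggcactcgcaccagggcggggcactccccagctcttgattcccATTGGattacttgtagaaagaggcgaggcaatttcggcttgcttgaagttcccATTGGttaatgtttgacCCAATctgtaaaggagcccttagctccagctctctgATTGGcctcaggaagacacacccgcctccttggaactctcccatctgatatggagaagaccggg

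Sterol synthesis promoters shared the NF-Y box, the site of a general activator that works beside SREBP. On either strand it was in 13 of the 14 sterol synthesis genes and 19 of all 24, against 41.1% of 27025 genes and 37.4% of 32851 windows. Hmgcs1 held 4 and Mvk held 5. The GC box (GGGCGG), bound by Sp1, was likewise in 13 of 14 and 20 of 24, against 38.2% of genes. The sterol regulatory element core was found in 1 of 24, Hmgcs1, at -137 to -129 (the start base is 0), against 0.614% of genes. Many working elements differ from this core, and a window without these letters says nothing about SREBP.

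Of the transport and export genes only Abca1 had a window. It lacked an NF-Y box, as did Acat2, Scap, Nr1h2 and Acaca. Abca1 held 2 GC boxes and an LXR pair at -67 to -53. The pair lay at -182 to -168 in Srebf1 and at -225 to -211 in Fasn. Over its 15 letters Fasn matched Abca1 with 0 mismatches, and Srebf1 with 2. It was in 3 of 24 genes, against 13 of 27025 genes, or 0.0481%. Its letters were chosen with Abca1, Srebf1 and Fasn already known as LXR targets, so these shares do not measure an enrichment. A STAT site (TTCNNNGAA), the kind bound by the LIF-activated factor STAT3, was in 1 of 24, Ebp, against 9.55% of genes, and not in this window of Abca1. In Fasn 2 NF-Y boxes on opposite strands overlap. The LXR pair and STAT site were added after the expression values were seen, and a match describes letters, not a bound site.

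**Figure D1:**
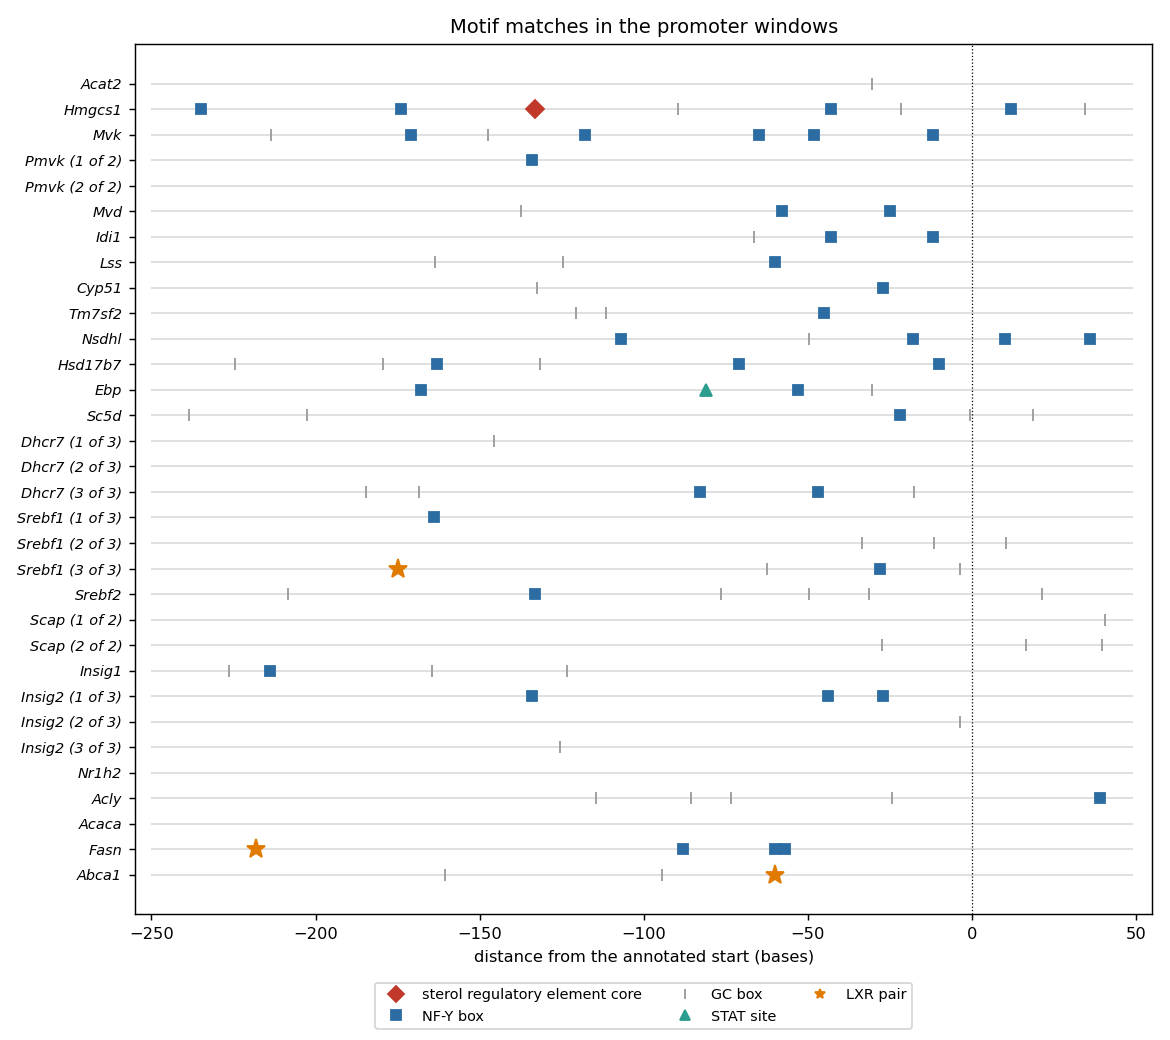
Motif matches in the promoter windows of 24 genes, with 1 line for each annotated start and distance from that start in bases on the x axis. NF-Y boxes (squares) run through the sterol synthesis genes at the top, whereas LXR pairs (stars) lie in Srebf1, Fasn and Abca1.

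The arrays set some limits. The deposited columns share 1 trimmed mean, and their medians ran from 114 to 144. Zfp42 itself gave a signal of 16729 to 23255 across the 8 arrays, also on those labelled knockout, with an averaged knockout minus J1 difference of -0.21 on the log2 scale (SE 0.16, limma adjusted p = 0.985). The sources used here do not say whether that probe set lies in the deleted part, so it does not check the labels, and directions refer to the arrays labelled knockout. Summed signal of 7 embryonic stem cell markers was 77609 to 108803. The first J1 array of each LIF condition stood apart: 9 fibroblast or feeder markers summed to 10693 and 10826 there, against 1485 to 2812 in the other 6 arrays, and 6 trophoblast markers to 14452 and 13819, against 1256 to 3703. Acta2 and Tagln reached 4835 and 4834, and Krt8 and Krt18 6655 and 7229. No other fibroblast or trophoblast marker exceeded 615.05 in any array. The sums thus rest mainly on these genes and do not by themselves name a cell type. The sum of 9 endoderm markers ran from 705 to 1255, and no marker was at 0 in any array. The part of these marker signals in the results below was not tested.

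LIF withdrawal was compared in each line to find transcripts that depend on the cytokine. Abca1, the pump that loads cholesterol onto apolipoprotein A-I and so starts its export, had a lower signal without LIF in both lines. Its brightest probe set (1421840_at) gave 787 and 687 in the J1 arrays with LIF, first array then second, and 453 and 359.5 without it. In the knockout the signal was 849 and 797 with LIF and 391 and 409.95 without. All 4 arrays with LIF thus lay above all 4 without it, and the lines overlapped without LIF. The group means were 737 ± 70.6 and 406 ± 66.4 (SD, n = 2) in J1, and 823 ± 36.5 and 400.5 ± 13.4 (SD, n = 2) in the knockout. No other measured gene of the set separated the LIF conditions over both lines.

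On the log2 scale Abca1 differed without minus with LIF by -0.87 (SE 0.24) in J1, by -1.04 (SE 0.24) in the knockout and by -0.95 (SE 0.17) averaged over both, a fold of 0.517. The averaged difference ranked 89 by p among 43439 probe sets. Its limma adjusted p of 0.739 did not pass 0.05. Within the first arrays the differences were -0.80 in J1 and -1.12 in the knockout, and within the second arrays -0.94 and -0.96. Leaving out each array in turn gave averaged differences of -1.04 to -0.87. The responses of the lines differed by -0.17 (SE 0.33, limma adjusted p = 1.00), with a 95% interval of -1.004 to 0.66.

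The other 2 Abca1 probe sets were dimmer. Probe set 1421839_at differed by -0.93 (SE 0.30) averaged over the lines, with the LIF conditions again apart, and by -0.48 in J1 and -1.39 in the knockout. Probe set 1450392_at differed by -0.81 (SE 0.39) averaged, with overlapping arrays, and by only -0.13 in J1 against -1.49 in the knockout. The 3 probe sets thus share a direction, and they differ in how much of it appears in J1. The marker sums overlapped between LIF conditions. Fibroblast sums were 1844 to 10693 with it and 1485 to 10826 without, and trophoblast sums 1256 to 14452 and 1391 to 13819. The 7 stem cell markers were all lower without LIF, with a median difference of -0.13, and their part in the Abca1 value was not tested. In whole-culture RNA, fewer cells with a transcript and less transcript per cell cannot be told apart.

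**Figure D2:**
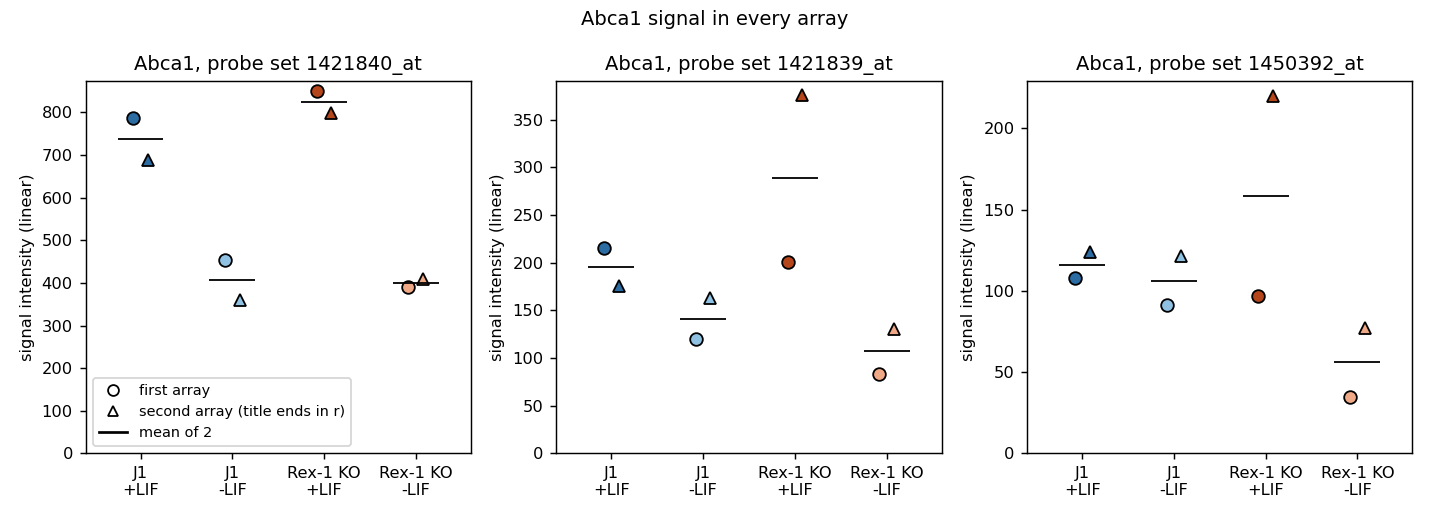
Abca1 signal intensity (linear, y axis from 0) in every array for its 3 probe sets, by line and LIF (x axis). Circles are first arrays, triangles second arrays and lines the mean of 2. For 1421840_at the 4 arrays with LIF (687 to 849) lie above the 4 without it (359.5 to 453).

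The enzymes that make sterols showed no such separation over both lines. Averaged over genotype, 7 of the 16 measured sterol synthesis genes were higher and 9 lower without LIF, with a median of -0.01 and a range of -0.27 to 0.27. All genes tested had a median of -0.01 as well. Sqle, the epoxidase that commits squalene to sterols, had the smallest unadjusted p among the enzymes. It gave 1317 and 1798 with LIF and 1639 and 2034 without in J1, and 1525 and 1411 against 1719.7 and 1869 in the knockout. The knockout arrays were apart and the J1 arrays overlapped. Its averaged difference was 0.27 (SE 0.19, limma adjusted p = 1.00), with an interval of -0.20 to 0.73, and its J1 difference fell to 0.02 without the first J1 array with LIF. Sc5d, a late desaturase, gave 586 and 487 with LIF and 632 and 622 without in the knockout, a difference of 0.23 (SE 0.28), or 0.10 without the second of the arrays with LIF. In J1 its arrays read 644 and 451 with LIF and 651 and 525 without, and overlapped.

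Of the 29 measured genes, the 3 with the narrowest range over the 8 arrays were sterol enzymes. The highest array was 1.23 times the lowest for Fdps, which makes farnesyl diphosphate (3983 to 4889), 1.25 times for Fdft1, the squalene synthase (1873 to 2349.9), and 1.26 times for Cyp51, the lanosterol demethylase (616 to 776). Hmgcs1, which makes HMG-CoA, ran from 4374 to 6135, Mvd, the decarboxylase that makes isopentenyl diphosphate, from 624 to 888, and Idi1, the isomerase after it, from 2005 to 3114. Lss, which closes squalene epoxide into lanosterol, gave 1092 and 959 with LIF and 1097 and 1178 without in J1, which are apart by a small gap, and 1079.7 and 1206 against 909.8 and 1365 in the knockout, which overlap. In 5 of the 29 measured genes the highest array was over 2 times the lowest: Mvk, Abcg1, Scd1, Abca1 and Scap. Abca1 had its 4 lowest arrays in the groups without LIF.

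The regulators were as mixed. By its brightest probe set Srebf2 gave 856 and 907 with LIF and 720.4 and 814 without in J1, which are apart. In the knockout that probe set gave 499 and 973 with LIF and 683 and 955 without, which overlap. The other Srebf2 probe set had a mean log2 of 9.48 against 9.62. Its log2 values overlapped in J1, at 9.26 and 9.56 with LIF and 9.35 and 9.50 without. In the knockout they were apart, at 9.56 and 9.59 with LIF and 9.52 and 9.49 without. Srebf1 gave 1227 and 1161 against 1289.8 and 775 in J1, and 1033 and 1193 against 1241 and 891 in the knockout. Neither line thus showed Srebf1 arrays apart. Scap, the escort of both factors, gave 1113 and 799 with LIF and 903 and 509.9 without in J1. In the knockout Scap read 566 and 997 with LIF and 786 and 648 without. Its differences were -0.47 (SE 0.43) in J1 and -0.07 (SE 0.43) in the knockout, and averaged -0.27 (SE 0.31, limma adjusted p = 1.00). Without the second J1 array lacking LIF the J1 difference was -0.06 and the average -0.07.

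The retention factors are Insig1 and Insig2, of which the first is itself an SREBP target. By the chosen probe sets they varied little, with a highest array 1.41 and 1.43 times the lowest. Insig1 gave 574 and 657 with LIF and 623 and 634 without in J1, and 687 and 612 against 806 and 600.1 in the knockout. Insig2 gave 662 and 809.5 against 753 and 686 in J1, and 566.5 and 625 against 599 and 663 in the knockout. Both overlapped between LIF conditions in both lines. Averaged differences were 0.07 for Insig1 and 0.03 for Insig2, and the group of 5 regulators had a median of 0.01. The other Insig2 probe sets ranged more widely, from 457 to 817 for 1417982_at and from 235 to 369 for 1417980_a_at. Their averaged differences were 0.26 (SE 0.22) and 0.14 (SE 0.23), with overlap.

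Fatty acid synthesis gave a median of -0.04 over its 5 genes, 1 higher and 4 lower without LIF. Acly, which supplies cytosolic acetyl-CoA, ran from 7224 to 9514 over the 8 arrays, Acaca, the first committed enzyme, from 561 to 973, and Fasn, the synthase, from 2706 to 3727. The desaturase Scd1 gave 671 and 601 with LIF and 911 and 436 without in J1, and 647 and 1084 against 566 and 825 in the knockout. Its spread within J1 without LIF, 673 ± 336 (SD, n = 2), exceeded every difference between its group means. Scd2, the other desaturase, gave 6478 and 5185 against 6674 and 4585 in J1, and 4523 and 4279 against 5428 and 4529 in the knockout. The knockout arrays of Scd2 were apart, narrowly, and the J1 arrays were not.

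By the chosen probe sets, the other transport genes overlapped between LIF conditions in both lines. Abcg1, which exports cholesterol to HDL, gave 329 and 417 with LIF and 549.9 and 234 without in J1, and 404 and 507 against 368 and 588 in the knockout. Stard4, a cytosolic sterol carrier, ran from 754 to 1043. Their averaged differences were -0.004 (SE 0.34) and 0.13 (SE 0.19).

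Counts over the set stayed near the background. limma called 0 members and 0 of 43439 probe sets (0.0%) at an adjusted p under 0.05 for LIF withdrawal in J1, in the knockout and averaged. At an unadjusted p under 0.05 there was 1 of 29 members, Abca1, each time, against 3.61%, 4.07% and 4.02% of probe sets. Among the 37 other probe sets of these genes it was reached by 1 in J1 (Lss), 4 in the knockout (2 of Abca1, and 1 each of Hmgcs1 and Scap) and 1 averaged (Abca1). In J1, 1 member was higher without overlap, Lss, against 13.2% of probe sets, and 2 lower, Srebf2 and Abca1, against 14.4%. In the knockout, Sqle, Sc5d and Scd2 were higher, against 13.5%, and Ebp and Abca1 lower, against 14.1%. Over all 8 arrays 0 members were higher, against 1.02%, and 1 lower, against 1.33%.

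**Figure D3:**
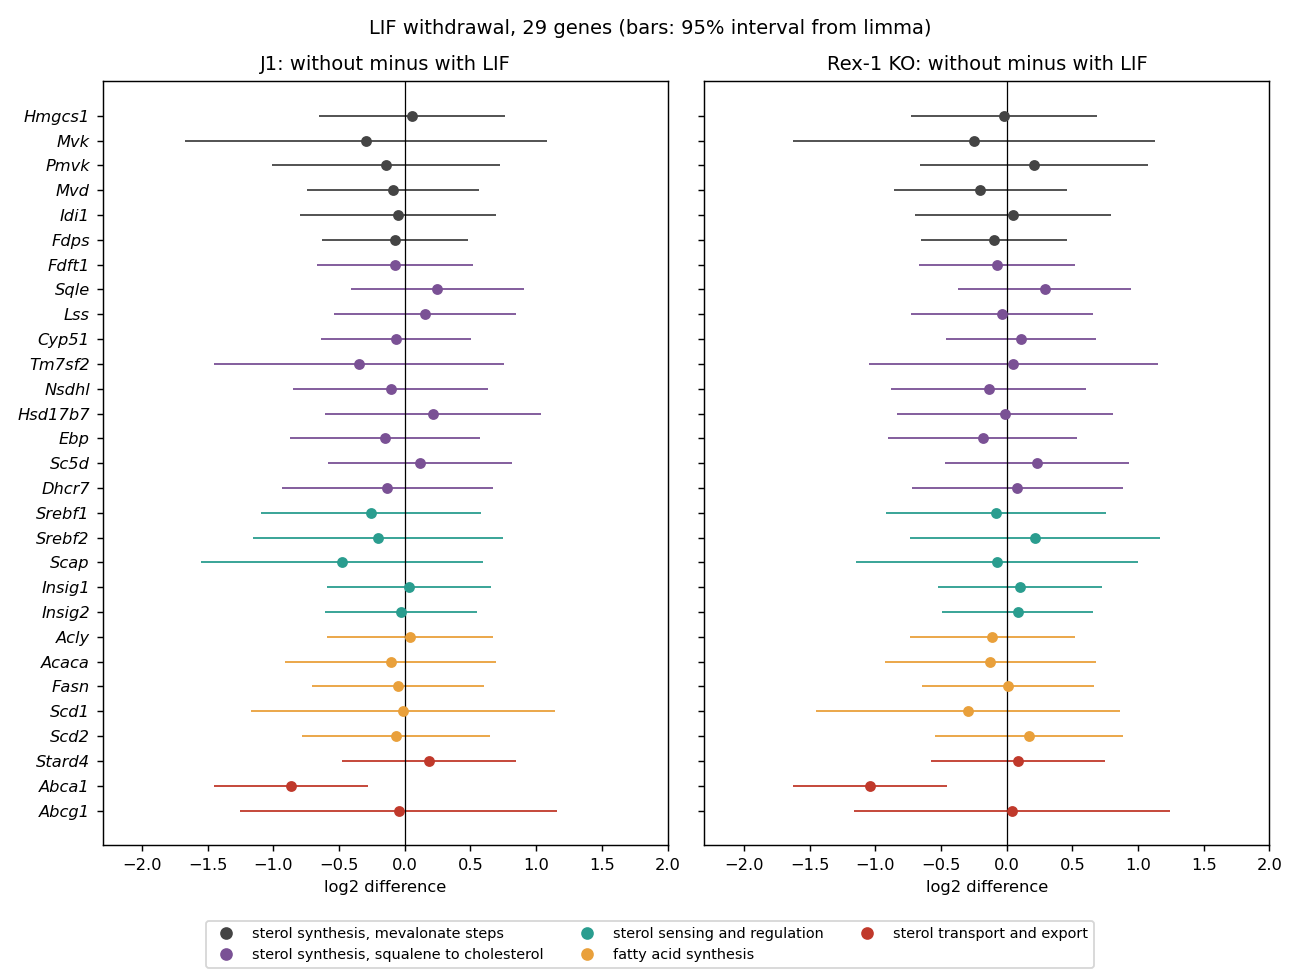
Log2 difference without minus with LIF for the 29 measured genes (rows), in J1 on the left and the knockout on the right, with 95% intervals from limma and colours for the gene groups. Abca1, at -0.87 and -1.04, is the gene whose interval lies away from 0 in both panels.

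The knockout was compared with J1 to find transcripts that depend on Rex-1. No gene of the set had an unadjusted p under 0.05 by the probe set that stands for it, with LIF, without it or averaged, and those are the values given unless another probe set is named. Averaged over LIF, 5 of 16 sterol synthesis genes were higher and 11 lower, with a median of -0.04, against 0.01 over all tested genes. The medians were -0.02 for fatty acid synthesis, -0.13 for the regulators and 0.07 for transport and export.

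Mvk, the kinase that acts on mevalonate, had the largest averaged difference. Its brightest probe set (1418052_at) gave 375 and 342 in J1 with LIF against 185 and 267 in the knockout, and 240.1 and 355 against 321 and 109.5 without LIF. By this probe set the lines were apart with LIF and overlapped without it, where the second knockout array was the lowest of all 8. The averaged difference was -0.66 (SE 0.39, limma adjusted p = 0.985), with an interval of -1.64 to 0.31. It was -0.69 (SE 0.56) with LIF and -0.64 (SE 0.56) without, and the latter turned to 0.14 without that second knockout array, which also moved the average to -0.27. Leaving out the first knockout array lacking LIF instead moved the average to -1.05.

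The other Mvk probe set (1430619_a_at), with a mean log2 of 7.755 against 8.005, gave 296 and 259 in J1 with LIF against 215 and 123 in the knockout, and 238 and 497 against 218 and 90.9 without LIF. All 4 knockout arrays lay below all 4 J1 arrays, a separation that 1.74% of all probe sets showed in this direction. Its difference was -0.77 (SE 0.59) with LIF, -1.29 (SE 0.59) without and -1.03 (SE 0.41, limma adjusted p = 0.946) averaged. The 2 probe sets thus share a direction and differ in whether the arrays without LIF overlap.

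Insig2 and Scd2 came next by the p of the averaged difference. By size Abcg1 came next after Mvk, at 0.33 (SE 0.34), followed by Tm7sf2, at 0.28 (SE 0.31). Insig2, with the values above, was lower in the knockout in each LIF condition without overlap, by -0.30 (SE 0.23) with LIF and -0.19 (SE 0.23) without. The averaged difference was -0.24 (SE 0.16, limma adjusted p = 0.985), and the highest knockout array without LIF, 663, lay just above the lowest J1 array with it, 662. The difference with LIF was -0.15 without the second J1 array of that group. Its other probe sets did not separate the lines: 1417982_at overlapped, at -0.13 (SE 0.31) with LIF and -0.20 (SE 0.31) without, and 1417980_a_at overlapped at 0.06 (SE 0.32) and 0.05 (SE 0.32). Scd2 was apart with LIF, by -0.40 (SE 0.29), and overlapped without it, and averaged -0.28 (SE 0.20, limma adjusted p = 0.985), or -0.14 without the first J1 array lacking LIF. Its paralog Scd1 had an averaged difference of 0.26 (SE 0.33), in the other direction and with overlap. Whether the paralogs differ from each other was not tested.

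Without LIF, Tm7sf2 and Ebp came next by p. Tm7sf2, a sterol reductase, gave 161 and 179 in J1 without LIF against 181 and 309 in the knockout, and 167 and 279 against 174 and 299 with LIF. Its difference was 0.48 (SE 0.44) without LIF and 0.08 (SE 0.44) with it, and the former was 0.10 without the second knockout array of that condition and 0.87 without the first. Ebp, the sterol isomerase, gave 901 and 1180.5 against 1186 and 1260.5 without LIF, and 939.8 and 1395.5 against 1376 and 1398 with it. The Ebp arrays were apart without LIF, by 0.25 (SE 0.29), where the gap between 1180.5 and 1186 is small beside the spread. Leaving out the first J1 array lacking LIF gave 0.05 for Ebp. Abca1 differed between the lines by 0.16 (SE 0.24) with LIF, where it was apart, and by -0.01 (SE 0.24) without. Its other probe sets read otherwise. Without LIF, 1450392_at was lower in the knockout and apart, at -1.02 (SE 0.55), and 1421839_at overlapped at -0.42 (SE 0.42). With LIF both overlapped, at 0.33 (SE 0.55) and 0.50 (SE 0.42).

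limma called 0 members and 0 of 43439 probe sets (0.0%) for the knockout against J1 with LIF, without LIF and averaged. At an unadjusted p under 0.05 there were 0 of 29 members, against 5.02%, 3.68% and 5.27% of probe sets. Among the 37 other probe sets of these genes it was reached by 2 with LIF (Hmgcs1 and Scap), 1 without (Acly) and 2 averaged (Mvk and Acly). Those of Hmgcs1, Scap and Acly had a mean log2 of 5.77, 4.21 and 4.73, below every probe set chosen for a gene. With LIF, Abca1 alone was higher in the knockout without overlap, against 15.5% of probe sets, and Mvk, Insig2, Fasn and Scd2 lower, against 14.5%. Without LIF, Tm7sf2 and Ebp were higher, against 15.9%, and Fdps and Insig2 lower, against 13.4%. For Fdps the gap lay between 4397.8, the higher knockout array, and 4397.9, the lower J1 array. Over all 8 arrays 0 members were apart by the chosen probe sets, against 2.1% of probe sets higher and 1.74% lower. The fibroblast and trophoblast sums above differ between the lines through the first J1 arrays, and their part in these values was not tested.

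**Figure D4:**
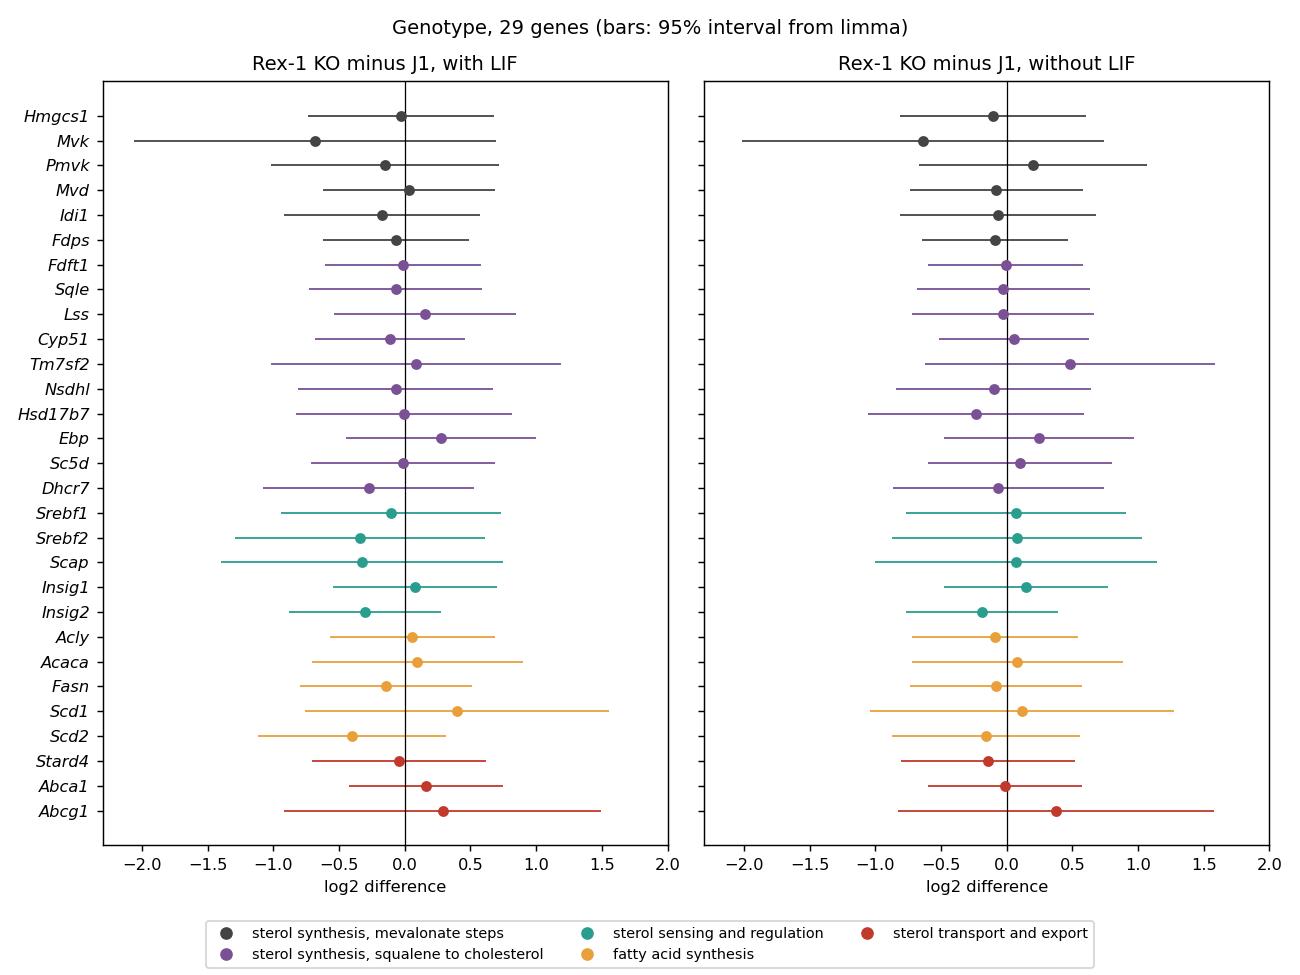
Log2 difference of the knockout minus J1 for the 29 measured genes (rows), with LIF on the left and without on the right, with 95% intervals from limma. Every interval includes 0, and that of Mvk, at -0.69 and -0.64, is the widest.

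Whether the lines answered LIF withdrawal unequally was tested with an interaction term. limma called 0 members and 0 of 43439 probe sets (0.0%). An unadjusted p under 0.05 was reached by 0 of 29 members, against 3.55% of probe sets, and by 1 of the 37 other probe sets of these genes, a dim one of Hmgcs1. The smallest p belonged to Srebf2, at 0.42 (SE 0.54), followed by Pmvk, at 0.35 (SE 0.49), and Scap, at 0.40 (SE 0.61), each with a limma adjusted p of 1.00. Pmvk, which adds the second phosphate to mevalonate, gave 563 and 658 with LIF and 479 and 636 without in J1, and 683 and 440.4 against 524 and 766 in the knockout. Its term was 0.03 without the second knockout array with LIF. Arrays apart in opposite directions were found in 0 of 29 members, against 3.43% of probe sets for LIF withdrawal in the lines and 3.15% for the genotypes with and without LIF. By the chosen probe sets all 5 regulators had a positive term, which means a higher response to withdrawal in the knockout. The median was 0.18 and none passed the threshold. The Srebf2 value turned to -0.07 without the first knockout array with LIF, and that of Scap to -0.77 as the mean of its 2 probe sets. The other Insig2 probe sets, 1417980_a_at and 1417982_at, had terms of -0.01 and -0.07. For the other Srebf2 probe set, knockout minus J1 was 0.17 with LIF and 0.08 without, so its term was negative too. The positive sign thus depends on the probe set for Insig2, Srebf2 and Scap.

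The sterol synthesis genes had a larger median difference between first and second arrays than between the study's groups. Of the 16 sterol synthesis genes 14 were higher in the second arrays, with a median of 0.18, against 0.04 over all tested genes and -0.02 over tested genes with a mean log2 of at least 8. Fatty acid synthesis had a median of -0.20, with 2 genes higher and 3 lower. Tm7sf2, with the values above, differed, second minus first, by 0.15 to 0.78 on the log2 scale in the 4 groups. Its averaged difference was 0.61 (SE 0.17, limma adjusted p = 0.297). Dhcr7, the last reductase on the way to cholesterol, gave 894, 801, 651 and 741 in the first arrays and 1068, 992, 1000.2 and 985 in the second, and these were apart. Its difference was 0.40 (SE 0.14, limma adjusted p = 0.328).

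Of the other late enzymes, Nsdhl and Hsd17b7 were apart as well by the chosen probe sets. Ebp and Sc5d overlapped, and Sc5d had the opposite sign, at -0.28. Nsdhl, a sterol dehydrogenase, gave 709, 676, 648 and 629.8 in the first arrays against 913, 826, 908 and 772 in the second. Hsd17b7, a ketoreductase, gave 219.5, 302, 234 and 239 against 343, 337, 320.4 and 307. Both were apart, by 0.36 (SE 0.13, limma adjusted p = 0.331) and 0.40 (SE 0.15, limma adjusted p = 0.336). In each list the order is J1 with LIF, J1 without, knockout with and knockout without.

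limma called 0 members and 0 of 43439 probe sets (0.0%) between second and first arrays. At an unadjusted p under 0.05 there were 4 of 29 members, against 14.5% of probe sets. Hmgcs1, Nsdhl, Hsd17b7, Dhcr7 and Acly were higher in the second arrays without overlap, 5 of 29 against 7.15% of probe sets, and 0 were lower, against 5.2%. For Hmgcs1 this depends on the probe set: the one chosen differed by 0.30 and 1433446_at by 0.41, both apart, but 1433444_at and 1433445_x_at overlapped, at -0.08 and -0.05. By the chosen probe sets, the 4 second-minus-first differences had a single sign in 10 of 29 members. Of these, 8 were higher in the second array, against 16.7% of probe sets, and 2 lower, Sc5d and Scd2, against 11.2%. By the other probe sets of Sc5d and Scd2 the sign was mixed. The marker sums above differ along this line too, with all 6 trophoblast markers lower in the second arrays, a median of -0.92, and all 7 stem cell markers higher, a median of 0.10. Their part in the sterol values was not tested.

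**Figure D5:**
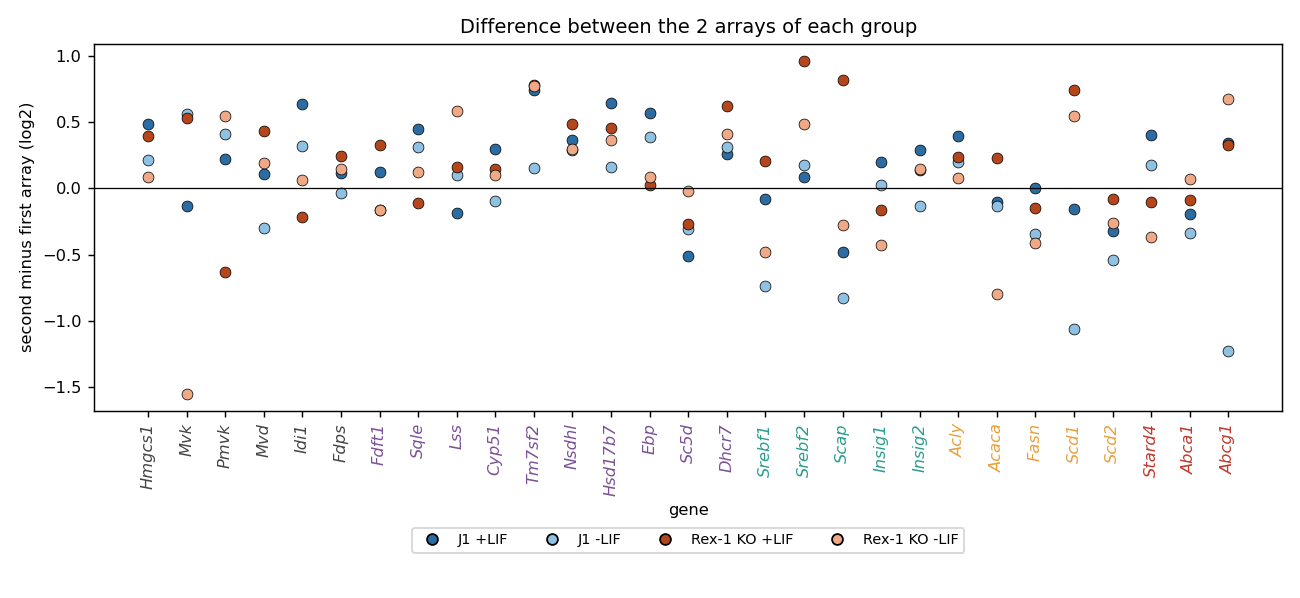
Second minus first array of each group on the log2 scale (y axis) for the 29 measured genes (x axis), with 1 point per group and gene names coloured by gene group. All 4 points of Tm7sf2 (0.15 to 0.78), Dhcr7, Nsdhl and Hsd17b7 lie above 0, and those of Sc5d and Scd2 lie below.

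A wider list of 31 pathway genes, 24 of them measured, was read for context. limma called 0 of the 24 in any comparison. At an unadjusted p under 0.05 it held 1 gene for the knockout against J1 without LIF and averaged, against 3.68% and 5.27% of all probe sets, 1 for the interaction, against 3.55%, 2 between second and first arrays, against 14.5%, and 0 elsewhere. Its median difference was 0.05 for LIF withdrawal averaged, with 15 genes higher and 9 lower, and -0.02 for the averaged genotype comparison, with 11 higher and 13 lower.

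Acss2, which makes acetyl-CoA from acetate, gave 129 and 136 in J1 with LIF and 114 and 128 without, against 142 and 174 and then 189 and 219.6 in the knockout. All 4 knockout arrays lay above all 4 J1 arrays, a separation in this direction shown by 1 of the 24 genes and 2.1% of all probe sets. The averaged difference was 0.50 (SE 0.17, limma adjusted p = 0.9). Acsl3, a fatty acyl-CoA synthetase, had a difference of -0.46 (SE 0.27, limma adjusted p = 0.985) with overlap, or -0.26 without the second knockout array with LIF. For LIF withdrawal the smallest p belonged to Elovl6, the elongase of palmitate, at 0.35 (SE 0.18, limma adjusted p = 1.00), or 0.23 without the first knockout array with LIF. Acacb, the mitochondrial acetyl-CoA carboxylase, followed at 0.52 (SE 0.46, limma adjusted p = 1.00). Its second knockout array with LIF read 92.7, against 274 to 473 in the other 7, and without that array the difference was 0.04.

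Nr1h3, which encodes LXR alpha, is named after its values were seen. It gave 148 and 136 with LIF and 25.6 and 87.9 without in J1, and 95.0 and 37.6 against 160.4 and 104.5 in the knockout. The signal was thus lower without LIF in J1 and higher in the knockout, with arrays apart in both. The interaction was 2.69 (SE 1.01, limma adjusted p = 1.00), at a mean log2 of 6.41, below all measured members of the set.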

How the data were processed

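The authors deposited linear signal intensity per probe set for 8 arrays. The submitters' processing notes name GCRMA without a version or role, and the values are linear and scaled, so the step that made them is not known. Without a detection value the background in low signals is unknown, and the number of arrays limits the precision. Genes were named through the platform annotation: of 45037 non-control probe sets, 34945 have 1 symbol, 932 several and 9160 none listed, and 64 control probe sets were left out.

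The members, the wider list and the marker lists were chosen with earlier results of these data known. Intensity was taken to log2 without a pseudocount, and the filter kept 43439 probe sets that reached a log2 of 4 in 2 or more arrays. limma 3.58.1 in R 4.3.3 fitted 1 mean per group with eBayes without trend, and Benjamini-Hochberg adjustment ran over all kept probe sets within each contrast. SEs and 95% intervals come from that fit. First and second arrays were compared with the letter added as a term. All measured members are named. Full statistics went to called members and in any case to the 3 of smallest unadjusted p per contrast, and of the wider list to the 2 of smallest p in each averaged contrast. Genes named beside these were named after their values were seen. Promoter windows are RefSeq's, and motifs were searched on both strands. The fit was tested on simulated data. Alternatives covered the filter, normalization, pseudocount, variance prior, arrays and probe sets used, the letter as a block, and leaving out each array, and 1 was added after the values were seen. The figures use matplotlib 3.10.9 (Python 3.11.15).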

Additional observations from a re-analysis of the deposited data

Results flagged for a closer look

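Members of the main set met none of the criteria for a closer look. In the wider list, 3 genes had arrays that were apart in opposite directions, as did 3.43% of all probe sets for LIF withdrawal in the lines and 3.15% for the knockout against J1 with and without LIF. For LIF withdrawal, Acss2 was lower in J1, by a small gap between 128.54 and 128.2, and higher in the knockout. The responses differed by 0.50 (limma interaction, adjusted p = 1.00). Me1, the cytosolic malic enzyme that supplies NADPH, did the same, with a difference of 0.38 between the responses (limma interaction, adjusted p = 1.00), and by the same term it was lower in the knockout with LIF and higher without it. Nr1h3 differed by 2.69 in both readings of the interaction (limma adjusted p = 1.00). None of these 3 differences was called.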

How the results depend on the processing

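Under 20 alternatives, 1 of them chosen after seeing the data, 245 of 248 main values and counts kept their direction and side of the threshold, or stayed within their replicate spread. The 3 others were stronger. Every main count of called members was 0, has no direction, and counted as kept if it stayed at 0. A group median counted as kept if it moved by less than its replicate spread, whatever its sign. That spread was 0.23 for sterol synthesis and 0.20 for fatty acid synthesis, wider than the averaged medians themselves. The added setting, a mean log2 of at least 8 with trend, robust variance and the replicate block, called 1 member for LIF withdrawal averaged, Abca1 at -0.95 (limma adjusted p = 0.0215), among 22 of 14892 probe sets. Over all its alternatives that adjusted p ran from 0.0215 to 1.00. With a mean log2 of at least 8 alone, 2 members were called between second and first arrays, Nsdhl at 0.36 (adjusted p = 0.0448) and Dhcr7 at 0.40 (0.0456), among 1837. Of the other values, 1044 were the same, 10 moved, 5 reversed and 2 were stronger. Mvk without LIF reversed to 0.14 without the second knockout array lacking LIF (range -1.42 to 0.14 over arrays left out). The Srebf2 interaction reversed to -0.066 without the first knockout array with LIF (-0.066 to 0.90), and that of Scap to -0.77 as the mean of all its probe sets, -0.011 without the second J1 array lacking LIF and -0.007 without the first knockout array with LIF (up to 0.81). The letter r was not taken as a pairing in the main fit. The groups' second-minus-first differences correlated at 0.05 to 0.20 over all probe sets. At a mean log2 of at least 8, where 28 of the 29 measured genes lie, they correlated at 0.24 to 0.64. The replicate block alone called 0 members in any comparison, with Abca1 at an adjusted p of 0.619. The causes were not tested. With 4 residual degrees of freedom, small differences are beyond these arrays.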
